A study of Mus musculus with 9 samples.

Results

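The comparison described here sets limb muscle progenitors that carry the fusion protein PAX3-FKHR against control progenitors of the same age. RNA was measured on 6 of the 9 Affymetrix Mouse430_2 expression arrays of the series, chosen by their labels alone. The 3 arrays named PAX3-FKHR GFP+ hold GFP+ cells from forelimb buds of Pax3PAX3-FKHR/GFP mouse embryos at E10.5, and the 3 arrays named control GFP+ hold GFP+ cells from forelimb buds of Pax3GFP/+ embryos at E10.5. A further 3 arrays of GFP- forelimb bud cells at E10.5, whose genotype the sample labels do not give, are used only to place a level. In the fusion embryos 1 Pax3 allele carries GFP and the other the fusion cDNA, followed by a lacZ reporter and made active by a PGK-Cre transgene that acts in all tissues, so neither allele makes mouse Pax3. The control embryos keep 1 intact Pax3 allele and carry GFP on the other. Limb buds of many embryos of 1 genotype were pooled for each sample before flow cytometry, so a replicate is a pool and the spread between embryos is not measured.

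Pax3 is a paired-domain and homeodomain transcription factor that marks the dermomyotome of the somite and the progenitors that leave it to form the muscles of the limb. In the fusion protein, which arises by translocation in human alveolar rhabdomyosarcoma, the DNA-binding domains of PAX3 are joined to the strong activation domain of the forkhead factor FKHR, now called FOXO1. The question of the study is which genes respond to this stronger form of Pax3 in myogenic progenitors, and the functions described below are those around and beyond the tables in which the study lists forelimb genes that change with the fusion. Values are log2 values made by the authors with RMA, which corrects the background of an array, brings all arrays to a common distribution and summarises the probes of a set. Each log2 fold change is the PAX3-FKHR mean minus the control mean, with the standard error (SE) of the limma fit, and calling a probe set took an adjusted p (Benjamini-Hochberg) under 0.05 together with a log2 fold change of at least 0.5 in either direction, a fold of 1.414. Levels are compared between samples only, since RMA values of different probe sets are not on 1 scale. In pooled RNA, fewer cells of a kind and less RNA per cell cannot be told apart.

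The cells matched their label in muscle progenitor markers, and 1 control array stood apart. Over 23 measured markers of limb muscle progenitors the mean level was 8.33 to 8.52 on the PAX3-FKHR GFP+ arrays, 7.86 to 8.27 on the control GFP+ arrays and 5.35 to 5.72 on the GFP- arrays. Control GFP+ replicate 3 had an array weight of 0.236, against 0.992 to 2.69 on the other 5 arrays compared, and within its group the correlation of arrays fell to 0.978. The arrays are written P1 to P3 (PAX3-FKHR GFP+ replicates 1 to 3) and C1 to C3 (control GFP+ replicates 1 to 3) below. Pax3 itself was at 7.15, 6.83 and 7.33 in P1 to P3, at 9.92, 8.94 and 10.22 in C1 to C3 and from 4.77 to 5.17 in the GFP- cells, a log2 fold change of -2.59 (SE 0.29, adjusted p = 0.0036). Its 3 probe sets were all called lower. This fall is set by the genotype, and the paper uses it as a control. What these probe sets measure in the fusion cells was not tested. Foxo1 was at 8.64, 8.98 and 8.95 in P1 to P3 and at 8.03, 8.24 and 8.01 in C1 to C3 on its brightest probe set, and 0 of its 4 probe sets passed the test (adjusted p = 0.0551 on the brightest). Whether a Foxo1 probe set also measures the human FKHR sequence of the fusion was not tested.

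With PAX3-FKHR, 178 of 45037 probe sets were called higher (0.395%) and 64 were called lower (0.142%). The excess of higher over lower is that of the called probe sets: at an unadjusted p under 0.05 there were 1584 higher and 1643 lower, and all 3 fusion arrays lay above all 3 control arrays for 2264 probe sets and below them for 3146. The called probe sets with 1 gene symbol stand for 126 genes that were higher and 51 that were lower, and 0 genes were called in both directions. Among the probe sets called higher, 140 changed by at least 1 on the log2 scale and 23 by at least 2. Among those called lower, 48 changed by at least 1 and 12 by at least 2. The probe sets called higher had a median control level of 5.87 and those called lower a median of 6.81, against 5.11 over all probe sets. Of the 242 called, 90 are not in the forelimb tables of the study. They include probe sets of 34 higher and 22 lower genes with no probe set at all in those tables, and their changes ran from -1.45 to 1.36 on the log2 scale. The study does give some of these genes as up elsewhere. They are Hhip and Cxcl5, among signalling genes of limbs and/or somites, and Dmrta2, in somites. Fits that leave out 1 array have fewer arrays and so less power, and in all of them the counts fell. They were 107 higher and 29 lower without P1, 73 and 31 without P2, 110 and 25 without P3, 92 and 38 without C1, 128 and 52 without C2, and 133 and 59 without C3. When the 6 arrays alone were fitted with replicate number as a block, 281 were higher and 95 lower.

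**Figure D1:**
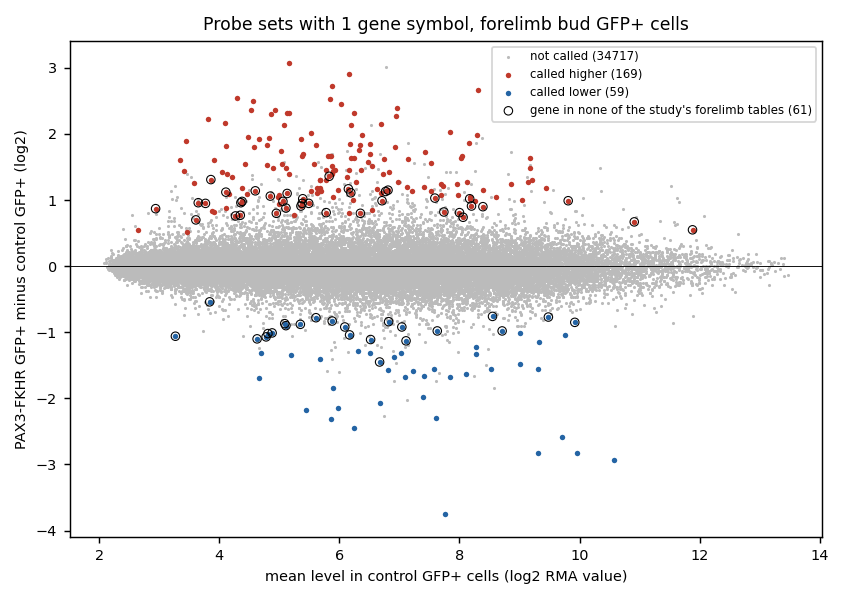
Log2 fold change of each probe set with 1 gene symbol (PAX3-FKHR GFP+ minus control GFP+, vertical axis) against its mean log2 RMA value in control GFP+ cells (horizontal axis). Called probe sets are coloured, and those of genes outside the forelimb tables of the study are ringed and lie between -1.45 and 1.36.

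Several of the largest changes, all in the tables, lie outside the gene groups described below. Diras2, a small GTPase of the Ras superfamily, was at 4.09, 3.97 and 3.97 in P1 to P3 and at 7.88, 8.16 and 7.25 in C1 to C3 (log2 fold change -3.75, adjusted p = 5.06e-05), on 1 of 2 probe sets, and its brighter one was at -0.09 (adjusted p = 0.925). Hoxb5os, a transcript antisense to Hoxb5, was at 7.84, 7.4 and 7.71 against 10.07, 10.11 and 11.57 (-2.93, adjusted p = 0.0051), with the GFP- cells at 7.14 to 7.68. Entpd3, which hydrolyses nucleotides outside the cell, was at 6.75, 7.05 and 6.75 against 4.54, 4.21 and 4.17 (2.55, adjusted p = 5.06e-05). In Vgll3, a cofactor of TEAD factors, the values were 8.96, 9.26 and 9.45 against 7.21, 7.02 and 6.63 (2.27, adjusted p = 0.0017), and all 3 of its probe sets were called. Fam107a was at 3.5, 3.7 and 3.43 against 5.69, 5.81 and 6.08 (-2.32, adjusted p = 5.06e-05) on 1 of 3 probe sets, and C130071C03Rik at 3.11, 3.11 and 2.7 against 4.92, 4.19 and 4.88 (-1.69, adjusted p = 0.0051) on 1 of 4. The brightest probe set of Fam107a was not called. In Diras2, Fam107a, Hoxb5os and C130071C03Rik the ranges of the fusion and GFP- arrays overlapped. Nav2, a navigator protein of migrating cells, was at 7.64, 6.66 and 6.85 against 4.9, 4.03 and 4.74 (2.5, adjusted p = 0.0434) on 1 of 8 probe sets, was not called whichever array was left out (adjusted p up to 0.186), and was at 0.18 (adjusted p = 0.873) on its brightest. The other 6 were called whichever array was left out.

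Promoters of genes that moved together were searched for the core of the Pax3 paired-domain site, GTCACG, and for the FoxO site GTAAACA, on either strand. The RefSeq promoter table (GRCm38.p6, 250 bases before to 50 after each start) matched 96 of the 126 genes called higher, 41 of the 51 called lower and 14452 of the 18193 genes measured. GTCACG was in 12.6% of 143 promoters of the higher genes, in 5.45% of 55 promoters of the lower genes and in 11.1% of all 18109 promoters. GTAAACA was in 1.4%, 1.82% and 2.98% of them. Windows of 1 gene can overlap and are counted separately, as for Egr2. Counted by gene, GTCACG was in 16.7%, 7.32% and 12.9%, and no test was run on these shares. Of the 2318 GTCACG matches in all promoters, 31.7% overlap CACGTG and 6.69% overlap TGACGTCA, which are sites of other factors (of the promoters printed here, that of Errfi1 holds TGACGTCA across its GTCACG). Matched promoters of 4 genes called higher are printed because each holds 1 GTCACG, in capitals, shortly before the start. It begins 49 bases before the start in Gdnf (chr15:7809798-7810097, plus strand), 54 in Egr2 (chr10:67537619-67537918, plus strand), 47 in Errfi1 (chr4:150854820-150855119, plus strand) and 57 in Prdm8 (chr5:98180619-98180918, plus strand). Promoters of 3 genes called lower hold GTCACG too, where it begins 57 bases before the start in Tacr3, 8 in Me1 and 96 in Zic1. A match says only that these letters are in the window.
Gdnf: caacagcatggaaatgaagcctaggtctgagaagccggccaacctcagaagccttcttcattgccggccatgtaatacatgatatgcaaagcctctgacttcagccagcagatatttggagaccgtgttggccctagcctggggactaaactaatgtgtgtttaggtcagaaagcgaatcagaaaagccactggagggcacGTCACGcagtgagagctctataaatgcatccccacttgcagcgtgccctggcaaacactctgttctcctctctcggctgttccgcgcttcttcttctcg
Egr2: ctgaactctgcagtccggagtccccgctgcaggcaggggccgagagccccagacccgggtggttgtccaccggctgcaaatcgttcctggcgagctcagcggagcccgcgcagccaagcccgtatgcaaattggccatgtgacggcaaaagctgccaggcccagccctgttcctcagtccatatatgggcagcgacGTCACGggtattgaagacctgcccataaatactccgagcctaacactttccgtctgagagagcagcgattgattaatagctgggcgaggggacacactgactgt
Errfi1: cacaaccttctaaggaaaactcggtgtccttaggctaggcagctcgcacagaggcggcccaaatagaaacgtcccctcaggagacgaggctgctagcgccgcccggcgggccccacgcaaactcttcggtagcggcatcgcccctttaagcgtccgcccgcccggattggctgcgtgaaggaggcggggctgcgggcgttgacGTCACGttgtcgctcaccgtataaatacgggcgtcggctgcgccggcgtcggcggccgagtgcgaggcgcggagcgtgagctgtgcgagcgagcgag
Prdm8: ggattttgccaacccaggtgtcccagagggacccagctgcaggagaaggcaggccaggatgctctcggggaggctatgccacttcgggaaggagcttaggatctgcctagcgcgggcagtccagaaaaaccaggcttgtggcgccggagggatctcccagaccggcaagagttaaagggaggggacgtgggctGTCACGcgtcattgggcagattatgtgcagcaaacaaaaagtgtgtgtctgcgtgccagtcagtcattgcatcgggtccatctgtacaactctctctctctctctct

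The list of secreted hormones and growth factors, which also holds the intracellular factor Fgf12, was the function list with most members called. Of 42 measured members, each represented by the brightest probe set of the gene, 10 were higher and 1 was lower, with a median log2 fold change of 0.07 against -0.03 over all 18193 genes. By brightest probe set, 0.61% of all genes were higher and 0.203% were lower. All lists were written with the tables of the study known, and 10 of the 11 members called are in those tables, which were chosen on these arrays, so the count is not independent evidence of direction. The exception is Gdnf, a neurotrophic factor that signals through Ret, which was at 8.94, 9.25 and 9.13 in P1 to P3 and at 8.22, 8.22 and 8.17 in C1 to C3. It lay between 6.08 and 6.39 in the GFP- cells, and the log2 fold change was 0.91 (SE 0.14, adjusted p = 0.02). Fgf5, a fibroblast growth factor, was at 7.55, 7.26 and 6.65 with PAX3-FKHR and at 4.92, 5.22 and 4.43 in the control, a change of 2.30 (SE 0.27, adjusted p = 0.0051). All 3 fusion arrays of both genes lay above all control and GFP- arrays.

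Among the other members that rose, 3 encode proteins that bind or oppose TGF beta family ligands or belong to it. Fst, follistatin, an activin and myostatin antagonist, was at 8.44, 9.02 and 9.35 in P1 to P3 and at 7.69, 7.5 and 7.91 in C1 to C3 (log2 fold change 1.24, SE 0.23, adjusted p = 0.0469). Chrdl1, a BMP antagonist, was at 8.20, 8.19 and 7.78 against 6.70, 6.34 and 6.39, and Bmp5 at 8.39, 8.28 and 8.08 against 6.75, 7.11 and 6.61. Their log2 fold changes were 1.58 (adjusted p = 0.0047) and 1.43 (adjusted p = 0.0331). Angptl1, an angiopoietin-like factor, rose by 1.66 (adjusted p = 3.38e-04), Stc2, a stanniocalcin, by 1.75 (adjusted p = 0.0109), Fgf12, an FGF homologous factor that stays inside the cell, by 1.26 (adjusted p = 0.0012) and the adipokine gene C1qtnf3 by 2.91 (adjusted p = 0.039). Ccbe1, the cofactor with which the protease Adamts3 processes Vegfc, rose by 1.85 (adjusted p = 0.0035), whereas Adamts3, which is outside the tables, was at 5.30, 5.05 and 5.02 in P1 to P3 and at 6.03, 6.16 and 6.32 in C1 to C3, a change of -1.04 (adjusted p = 0.029). The member called lower was Cxcl12, a chemokine for migrating progenitors, at 8.36, 7.96 and 8.21 against 9.30, 9.19 and 9.46 (-1.14, adjusted p = 0.0070).

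Several of these calls needed all 6 arrays. Fgf5, Fgf12, Angptl1, Ccbe1, Chrdl1 and Cxcl12 were called whichever array was left out. Gdnf was not called without P2, P3, C1 or C2 (adjusted p up to 0.124) nor with the replicate number as a block over all arrays (adjusted p = 0.0586). Fst was not called without P2, P3, C1, C2 or C3 (adjusted p up to 0.195), Bmp5 without P1, P2, P3, C1 or C3 (up to 0.152), Stc2 without P2 or P3 (up to 0.0585), and C1qtnf3 and Adamts3 whichever array was left out (up to 0.174 and 0.146). With the block over all arrays, Bmp5 (adjusted p = 0.0715), C1qtnf3 (adjusted p = 0.0745) and Adamts3 (adjusted p = 0.0622) were not called. The block on the 6 arrays called Gdnf, Bmp5, C1qtnf3 and Adamts3 (adjusted p = 0.0308, 0.0075, 0.0017 and 0.0276).

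**Figure D2:**
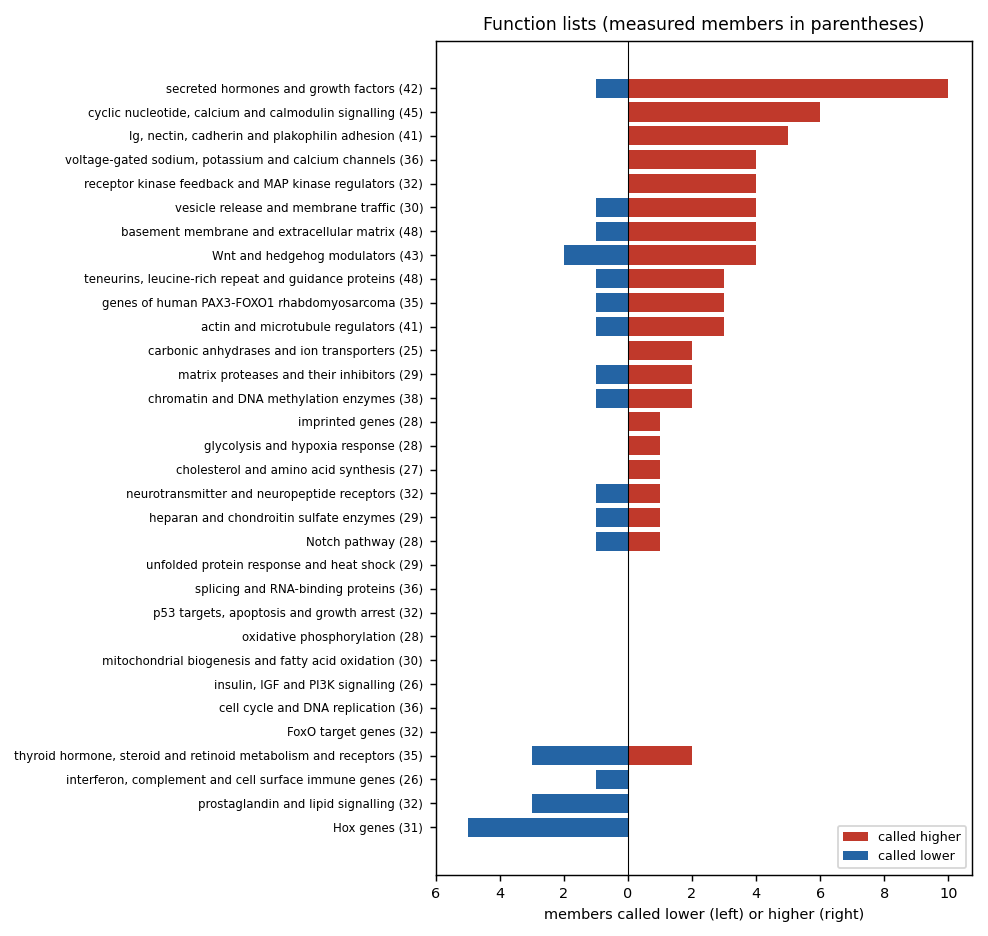
Number of measured members of the function lists called higher (bars to the right) or lower (bars to the left) with PAX3-FKHR, by the brightest probe set of each gene, with the number measured in parentheses. The list of secreted factors, which also holds the intracellular factor Fgf12, reached 10 higher of 42, and the Hox genes 5 lower of 31.

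Ligands and receptors outside the tables changed in both directions. Fgf8, which the apical ectodermal ridge of the limb secretes, was at 5.60, 5.64 and 5.99 in P1 to P3, at 4.6, 4.65 and 4.55 in C1 to C3 and at 5.18, 5.58 and 5.41 in the GFP- cells. The log2 fold change was 1.14 (SE 0.15, adjusted p = 0.0071), and the fusion arrays lay above those of both other groups. Of the 23 limb ectoderm markers, 2 were called higher, Fgf8 and the homeobox gene Dlx5 (1.49, adjusted p = 0.0071), and 0 were lower. The mean level of this list was 4.87 to 5.17 with PAX3-FKHR, 4.55 to 5.02 in the control and 5.19 to 6.25 in the GFP- cells. Its epithelial members Epcam and Krt8 were at mean levels of 6.94 and 5.59 with PAX3-FKHR and of 6.66 and 5.94 in the control, and neither was called (adjusted p = 0.918 and 0.846).

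Slit1, a guidance ligand for Robo receptors, was at 7.02, 6.87 and 7.69 in P1 to P3 and at 5.90, 5.69 and 5.90 in C1 to C3 (log2 fold change 1.36, SE 0.20, adjusted p = 0.0165). This is 1 of its 2 probe sets, and on the other, which is brighter, the change was 0.79 (adjusted p = 0.339). Hhip, a membrane protein that binds and restrains hedgehog ligands, was at 6.46, 6.30 and 6.45 against 5.41, 5.45 and 5.30, a change of 1.02 (SE 0.13, adjusted p = 0.0071), and was called on 2 of its 4 probe sets. Scube2, which helps to release hedgehog ligands from the cells that make them, was at 3.45, 3.64 and 3.50 against 4.34, 4.33 and 5.21 (-1.1, adjusted p = 0.0495). Vldlr, a receptor for lipoproteins and reelin, rose by 1.13 (adjusted p = 0.0146) and was called on 3 of its 6 probe sets. Shisa2 and Shisa3, which belong to a family that holds Frizzled and FGF receptors back in the endoplasmic reticulum, moved apart. Shisa2 was at 9.17, 9.30 and 9.11 in P1 to P3 and at 8.27, 8.37 and 7.88 in C1 to C3 (1.02, adjusted p = 0.0381), and Shisa3 at 5.68, 5.35 and 5.19 against 6.43, 6.49 and 6.63 (-1.11, adjusted p = 0.0129). Both were called on 2 of 2 probe sets. Dcc, a netrin receptor, fell by 1.07 (adjusted p = 0.018) on 1 of 3 probe sets, while its brightest was at -0.07 (adjusted p = 0.92).

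Fgf8, Dlx5 and Hhip were called without any 1 of the 6 arrays. Slit1 was not called without C1 or C2 (adjusted p up to 0.0657), Shisa3 without P2 or P3 (up to 0.0797), Dcc without P1, P2, P3 or C1 (up to 0.0906), Scube2 without P1, P2, P3 or C1 (up to 0.206), Vldlr without P1, P2, P3, C1 or C2 (up to 0.0861), and Shisa2 whichever array was left out (up to 0.18). Scube2 (adjusted p = 0.0605) and Shisa2 (adjusted p = 0.0873) were not called with the replicate block over all arrays. Both were called with the block on the 6 arrays (adjusted p = 0.0423 and 0.0202).

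**Figure D3:**
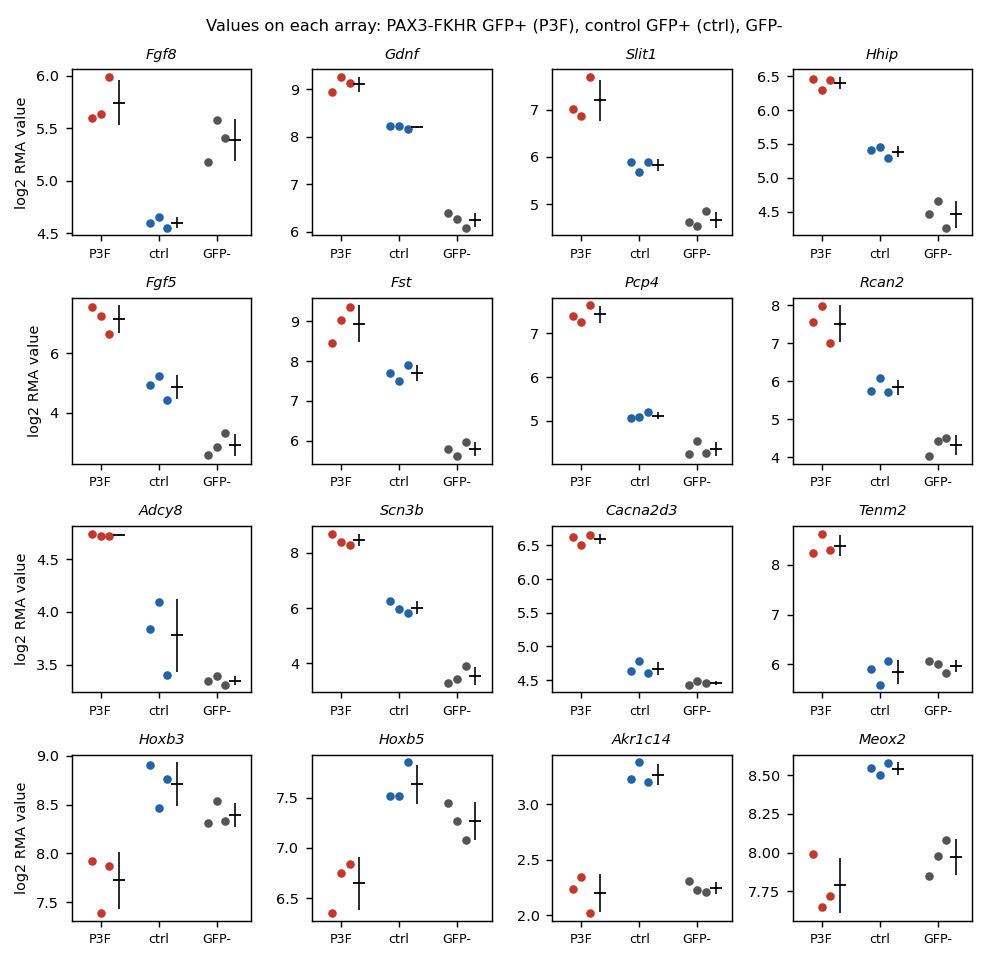
Log2 RMA values (vertical axes, which do not start at 0) of 16 genes on the PAX3-FKHR GFP+ (P3F), control GFP+ (ctrl) and GFP- arrays, with replicates 1 to 3 from left to right in each group and the mean and SD (n = 3) beside them. Fgf8 sat at 5.60 to 5.99 with PAX3-FKHR, above the control at 4.55 to 4.65, and Akr1c14 at 2.02 to 2.35, below the control at 3.20 to 3.38.

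Several genes of second messengers and of excitable membranes were called, most of them higher with PAX3-FKHR, as are most calls of all (111 genes higher and 37 lower by the brightest probe set). Of 45 genes of cyclic nucleotide, calcium and calmodulin signalling, 6 were higher and 0 lower by the brightest probe set, with a median log2 fold change of 0.1. Of the 6, 5 are in the tables of the study. Pcp4, a small regulator of calmodulin, was at 7.39, 7.27 and 7.64 in P1 to P3 and at 5.07, 5.08 and 5.2 in C1 to C3, a change of 2.31 (SE 0.14, adjusted p = 6.74e-05). Rcan2, an inhibitor of calcineurin, was at 7.56, 7.98 and 7.01 against 5.74, 6.08 and 5.71 (1.67, adjusted p = 0.0129), and the kinase gene Prkce at 8.47, 8.84 and 8.53 against 7.18, 7.36 and 7.68 (1.20, adjusted p = 0.0106). Ppp1r16b, a subunit that targets protein phosphatase 1, rose by 1.40 (adjusted p = 0.0265) and Pde4dip, which anchors a phosphodiesterase, by 1.28 (adjusted p = 0.0411). Outside the tables, Adcy8, an adenylyl cyclase that calmodulin stimulates, was at 4.74, 4.72 and 4.72 against 3.84, 4.09 and 3.40 (0.95, adjusted p = 0.0195). These are low values, below the median of all values (5.11). Akap5, which anchors protein kinase A, rose by 0.77 (adjusted p = 0.0144). Pde4b, a phosphodiesterase that breaks down cyclic AMP, was at 4.10, 4.37 and 4.20 in P1 to P3 and at 4.90, 5.17 and 5.21 in C1 to C3 on 1 of 6 probe sets (-0.87, adjusted p = 0.0113), and its brightest was at -0.89 (adjusted p = 0.193). Camk1d, a calmodulin-dependent kinase, fell by 0.90 (adjusted p = 0.0129) on 1 of 3 probe sets, and its brightest was not called.

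Of 36 voltage-gated and related channel genes, 4 were higher and 0 lower, all 4 in the tables, and the median was 0. The sodium channel subunit gene Scn3b was at 8.69, 8.41 and 8.30 with PAX3-FKHR and at 6.27, 5.95 and 5.84 in the control (2.45, adjusted p = 4.23e-04), and the calcium channel subunit gene Cacna2d3 at 6.63, 6.51 and 6.65 against 4.63, 4.78 and 4.6 (1.93, adjusted p = 5.06e-05). Kcnk2, a potassium channel, rose by 1.35 (adjusted p = 0.019) and Scn3a, a sodium channel, by 1.19 (adjusted p = 0.0381). Of 30 genes of vesicle release and membrane traffic, Cpne7, Syt13, Sec16b and Myo5b were higher, by 1.66, 1.54, 1.48 and 0.85, and Stxbp6, which binds the fusion machinery of vesicles, was lower (-1.67, adjusted p = 0.0068). These 5 are all in the tables. Of 32 neurotransmitter and neuropeptide receptors, the acetylcholine receptor subunit gene Chrnb1 was higher (1.44, adjusted p = 0.0364) and the tachykinin receptor gene Tacr3 was lower, at 5.49, 5.35 and 5.38 against 7.11, 7.43 and 7.65 (-1.98, adjusted p = 3.38e-04).

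Pcp4, Scn3b, Cacna2d3, Sec16b, Stxbp6 and Tacr3 were called whichever array was left out. Rcan2 was not called without P1 or C1 (adjusted p up to 0.0657), Prkce without P2 or C1 (up to 0.0613), Akap5 without P2, P3 or C1 (up to 0.0834), Pde4b without P1 or P3 (up to 0.0606), Camk1d and Adcy8 without P1, P2, P3 or C1 (up to 0.0667 and 0.0888), Kcnk2 without P2, P3, C1 or C3 (up to 0.0909) and Scn3a without P1, P2, C1 or C3 (up to 0.161). Cpne7 was not called without P2, P3 or C2 (up to 0.0874), Ppp1r16b without P2, P3, C1, C2 or C3 (up to 0.132), Syt13 without P1, P2, P3, C1 or C3 (up to 0.129), Chrnb1 without P1, P2, P3, C2 or C3 (up to 0.16), and Pde4dip and Myo5b whichever array was left out (up to 0.147 and 0.117). With the block over all arrays Cpne7 (adjusted p = 0.0534), Chrnb1 (adjusted p = 0.0715), Pde4dip (adjusted p = 0.0926) and Myo5b (adjusted p = 0.0722) were not called. All of these were called with the block on the 6 arrays (adjusted p = 0.0428, 0.0063, 0.0195 and 0.0479).

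Adhesion and guidance genes were called in both directions. Of 41 Ig, nectin, cadherin and plakophilin genes, 5 were higher and 0 lower, all in the tables, with a median of 0.06. Opcml, an Ig protein on a lipid anchor, was at 6.08, 6.39 and 6.28 in P1 to P3 and at 4.33, 4.33 and 3.59 in C1 to C3 (2.16, adjusted p = 0.0014), and Nectin3, a cell adhesion receptor, at 10.12, 10.11 and 10.07 against 9.04, 8.85 and 8.67 (1.25, adjusted p = 0.0036). Pkp2, a plakophilin of desmosomes, rose by 1.84 (adjusted p = 0.0165), Alcam by 1.73 (adjusted p = 0.0409) and the large cadherin gene Fat3 by 1.07 (adjusted p = 0.0372). Of 48 teneurins, leucine-rich repeat and guidance genes, Tenm2, Flrt1 and Epha7 were higher and Flrt3 was lower, and on any probe set 5 were higher and 3 lower. Tenm2, a teneurin, was at 8.23, 8.62 and 8.29 against 5.90, 5.59 and 6.06 (2.53, adjusted p = 1.34e-04), and was called on 2 of 4 probe sets. Flrt1 was at 6.90, 7.71 and 7.81 against 5.97, 6.15 and 5.32 (1.66, adjusted p = 0.0229), whereas its relative Flrt3, outside the tables, was at 8.85, 8.65 and 8.63 against 9.49, 9.60 and 9.34 (-0.77, adjusted p = 0.0381).

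Matrix genes were divided. Of 48 genes of the basement membrane and extracellular matrix, Coch, Crtac1, Col13a1 and Npnt were higher and Tgfbi was lower, all in the tables, with a median of -0.09. Col13a1, a collagen that spans the membrane, was at 9.48, 9.83 and 9.80 against 8.0, 8.0 and 8.15 (1.66, adjusted p = 0.0051), and Npnt, an integrin ligand of basement membranes, rose by 1.64 (adjusted p = 0.0384). Tgfbi was at 7.82, 7.67 and 7.77 against 8.98, 9.11 and 9.84 (-1.56, adjusted p = 0.0204), and was called on 4 of 4 probe sets. Of 29 matrix proteases and inhibitors, the carboxypeptidase gene Cpm was at 9.92, 10.08 and 10.11 against 8.34, 8.46 and 7.70 (1.87, adjusted p = 0.0017), Serpinb1a rose by 1.44 (adjusted p = 0.0051) and Prss35 fell by 1.35 (adjusted p = 0.0051). Of 29 genes for heparan and chondroitin sulfate, the sulfotransferase gene Chst15 rose by 1.24 (adjusted p = 0.0153) and Chst7 fell by 1.57 (adjusted p = 0.0411). Outside the tables, Itih5, a secreted heavy chain of the inter-alpha-trypsin inhibitor family, fell by 0.78 (adjusted p = 0.0175) and Dpep1, a membrane dipeptidase, by 0.92 (adjusted p = 0.0098), each on 1 of several probe sets. In both genes the brightest probe set was not called.

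Opcml, Nectin3, Tenm2, Coch, Crtac1, Col13a1, Cpm, Serpinb1a and Prss35 were called whichever array was left out. Pkp2 was not called without P1, P2, P3, C1 or C3 (adjusted p up to 0.0888), Fat3 and Flrt3 without P1, P2, P3, C1 or C2 (up to 0.17 and 0.183), Flrt1 without P2, P3, C1 or C3 (up to 0.122), Tgfbi without P1, P2 or P3 (up to 0.11), Chst15 without P1, P2, P3 or C1 (up to 0.0861), Chst7 and Itih5 without P1, P2, P3 or C2 (up to 0.17 and 0.0843), Dpep1 without P1 or P2 (up to 0.0664), and Alcam, Epha7 and Npnt whichever array was left out (up to 0.176, 0.167 and 0.176). With the block over all arrays, Alcam (adjusted p = 0.0876), Fat3 (adjusted p = 0.0611), Epha7 (adjusted p = 0.0647), Flrt3 (adjusted p = 0.081), Npnt (adjusted p = 0.0902) and Tgfbi (adjusted p = 0.0597) were not called, and Itih5 was not called with the block on the 6 arrays (adjusted p = 0.0601). That block on the 6 arrays called Alcam, Epha7, Npnt and Tgfbi (adjusted p = 0.0050, 0.0131, 0.0239 and 0.0107) but not Fat3 or Flrt3 (0.0515 and 0.0549).

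The Hox genes, which set position along the body and limb axes, were lower as far as they were called. Of 31 measured Hox genes, 5 were lower (16.1%, against 0.203% of all genes) and 0 higher. The log2 fold change was below 0 in 28 of them. Their median was -0.42, the lowest of the 43 lists, against -0.03 over all genes. Hoxb1 was at 3.55, 2.91 and 3.38 in P1 to P3 and at 5.28, 4.92 and 6.15 in C1 to C3 (-2.17, SE 0.27, adjusted p = 0.0067). Hoxa4 was at 3.83, 4.55 and 4.42 against 5.67, 5.38 and 5.95 (-1.40, SE 0.24, adjusted p = 0.0316), and Hoxa10 at 8.25, 7.95 and 7.80 against 9.04, 9.06 and 8.92 (-1.01, SE 0.16, adjusted p = 0.0206). These 3 are in the tables of the study. Outside the tables, Hoxb3 was at 7.92, 7.39 and 7.87 against 8.90, 8.46 and 8.76 (-0.98, SE 0.18, adjusted p = 0.0498) and Hoxb5 at 6.35, 6.75 and 6.84 against 7.52, 7.52 and 7.85 (-0.98, SE 0.18, adjusted p = 0.0444). In the GFP- cells Hoxb3 was at 8.31 to 8.54 and Hoxb5 at 7.08 to 7.45, so the fusion arrays lay below both other groups. Hoxa3 was called on 1 of its 4 probe sets, at 4.37, 4.52 and 4.52 against 5.25, 5.23 and 5.56 (-0.88, adjusted p = 0.0153), while its brightest probe set was at -0.05 (adjusted p = 0.969).

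Members that did not pass the test had values on the same side in the Hoxb cluster. Hoxb2 was at -1.04 (adjusted p = 0.0605), Hoxb4 at -0.87 (adjusted p = 0.143) and Hoxb6 at -0.83 (adjusted p = 0.0896), whereas Hoxb7 was at -0.01 (adjusted p = 0.984). In the Hoxd cluster, whose distal members pattern the hand plate, the values ran from -0.50 for Hoxd3 to 0.15 for Hoxd9, and 0 were called. The limb mesenchyme list, which shares 5 Hox genes with this one, had 0 of 30 members called and a median of -0.06. Its member Osr1, a zinc finger factor that is in the tables, was at 4.37, 4.62 and 4.41 in P1 to P3 and at 6.5, 5.82 and 7.89 in C1 to C3 (-2.27, adjusted p = 0.0736). With the 6-array replicate block, Osr1 was called lower (adjusted p = 0.0283) and Grem1, a BMP antagonist, higher (0.95, adjusted p = 0.127 without the block and 0.0392 with it). Osr1 was also called with array weights and by the local pooled error (LPE) test that the study used. The mean level of the list was 7.02 to 7.27 with PAX3-FKHR, 7.08 to 7.36 in the control and 8.25 to 8.60 in the GFP- cells. Hoxb1 was called whichever array was left out. Hoxa10 was not called without P2, P3, C1 or C2 (adjusted p up to 0.117), Hoxa3 without P1, P2 or P3 (up to 0.0801), Hoxa4 without P1, P2, P3, C1 or C3 (up to 0.12), and Hoxb3 and Hoxb5 whichever array was left out (up to 0.201 and 0.177). With the block over all arrays, Hoxa4 (adjusted p = 0.0736), Hoxb3 (adjusted p = 0.0816) and Hoxb5 (adjusted p = 0.097) were not called. All of these were called with the 6-array block (adjusted p = 0.0182, 0.0218 and 0.0309).

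**Figure D4:**
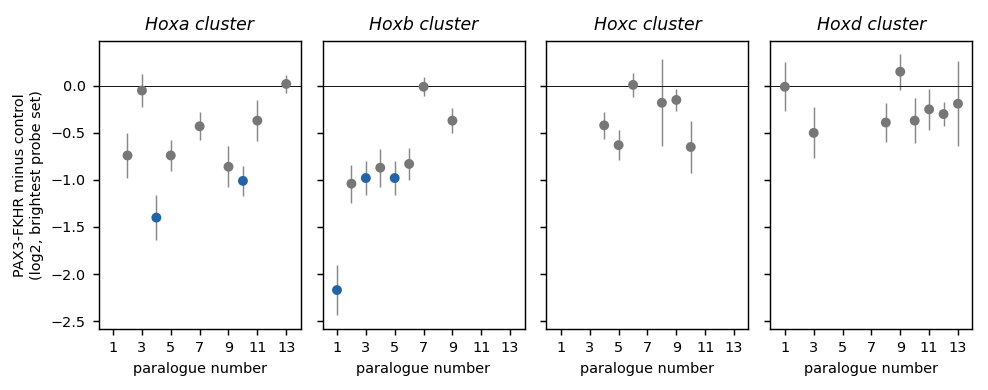
Log2 fold change (PAX3-FKHR GFP+ minus control GFP+, vertical axis) of the 31 measured Hox genes by cluster and paralogue number, on the brightest probe set of each gene. Bars are standard errors of the fit and blue points are the 5 genes called lower, from -2.17 for Hoxb1 to -0.98 for Hoxb3 and Hoxb5.

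Transcription factors and chromatin genes outside the tables changed in both directions. Meox2, a homeobox gene of limb muscle progenitors, was at 7.99, 7.65 and 7.72 in P1 to P3, at 8.55, 8.5 and 8.58 in C1 to C3 and at 7.85 to 8.08 in the GFP- cells (-0.76, adjusted p = 0.0479). Its brighter probe set was at -0.81 (adjusted p = 0.0941). The POU factor gene Pou3f3 was at 5.94, 5.98 and 6.02 against 6.93, 6.95 and 7.44 (-1.13, SE 0.15, adjusted p = 0.0107), and its relative Pou3f4 at 6.21, 6.52 and 6.07 against 5.49, 5.33 and 5.26 on 1 of 2 probe sets (0.91, adjusted p = 0.0393), with 0.10 (adjusted p = 0.938) on the brighter one. Prdm16, a zinc finger factor known for its part in brown fat, was at 9.16, 9.06 and 9.01 against 9.79, 9.91 and 10.08 (-0.85, adjusted p = 0.0159). In the tables, Prdm8 rose by 1.61 (adjusted p = 0.0017) and Hdac5, a class II histone deacetylase, by 0.98 (adjusted p = 0.0208). These 3 were the members called among 38 chromatin genes, whose median was 0.01.

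Dmrta2, a DM domain factor, was at 7.11, 7.59 and 7.28 with PAX3-FKHR against 6.23, 5.78 and 6.44 (1.17, adjusted p = 0.0381). The study lists Dmrta2 as up in somites. Glis3, a zinc finger factor, rose by 0.76 (adjusted p = 0.0306), Ldb2, which bridges LIM factors, by 0.82 (adjusted p = 0.0345), Mamstr, a coactivator of Mef2 factors, by 0.98 (adjusted p = 0.0173) on 1 of 2 probe sets, and the imprinted zinc finger gene Peg3 by 0.55 (adjusted p = 0.0427). The brighter probe set of Mamstr was not called. Peg3 was the only one of 28 imprinted genes called, and the median of that list was 0.15. Hes5, a Notch target, fell by 0.83 (adjusted p = 0.0413) on 1 of 2 probe sets, and Zfp804a and Nol4l by 1.02 (adjusted p = 0.0437) and 0.84 (adjusted p = 0.0384), each on 1 of several probe sets. In Hes5, Zfp804a and Nol4l the brightest probe set was not called. Of 28 Notch pathway genes, the atypical ligand gene Dlk2, outside the tables, was higher, at 7.12, 7.17 and 7.16 against 6.47, 6.43 and 6.15 (0.80, adjusted p = 0.0316), and Dll3 was lower (-1.31, adjusted p = 0.0181).

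Of the genes in these 2 paragraphs, only Prdm8 was called whichever array was left out. Pou3f3 was not called without P1 or P2 (adjusted p up to 0.0599), Prdm16 without P1, P2, P3 or C2 (up to 0.093), Hdac5 and Mamstr without P1, P2, C1 or C3 (up to 0.125 and 0.0931), Dmrta2, Glis3 and Zfp804a without P1, P2, P3, C1 or C2 (up to 0.168, 0.125 and 0.169), and Dll3 without P1, P2, P3, C1 or C3 (up to 0.0855). Meox2, Pou3f4, Ldb2, Peg3, Hes5, Nol4l and Dlk2 were not called whichever array was left out (adjusted p from 0.0529 to 0.235). With the block over all arrays Meox2, Pou3f4, Prdm16, Dmrta2, Glis3, Ldb2, Peg3, Hes5, Nol4l and Dlk2 were not called (adjusted p from 0.0505 for Peg3 to 0.118 for Meox2). The block on the 6 arrays called Pou3f4, Prdm16, Ldb2, Peg3 and Nol4l (adjusted p from 0.0294 to 0.0489). It did not call Meox2, Dmrta2, Glis3, Hes5 or Dlk2 (adjusted p from 0.0549 to 0.0814).

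Among feedback regulators of kinase signalling, the changes called were rises, while Wnt and hedgehog modulators were divided. Of 32 genes of receptor kinase feedback and MAP kinase regulation, 4 were higher and 0 lower, all in the tables, with a median of -0.03. Egr2, an early growth response factor, was at 7.16, 7.17 and 7.52 against 4.86, 4.71 and 5.21 (2.36, adjusted p = 3.38e-04), and Errfi1, a feedback inhibitor of the EGF receptor, at 10.71, 10.62 and 10.55 against 9.49, 9.62 and 9.22 (1.18, adjusted p = 0.0149). Map3k5, a stress kinase, rose by 1.70 (adjusted p = 0.0149) and Jun by 1.04 (adjusted p = 0.0183). Egr1, Egr3, Fos and Fosb, other early response genes, had changes of -0.47, -0.08, -0.01 and 0.13, and none passed the test. Of 43 Wnt and hedgehog modulators, Siah2, Ankrd6, Cdon and Hhip were higher and Frzb and Nkd2 lower. Ankrd6, which binds in the Wnt pathway, was at 8.60, 8.81 and 8.83 against 6.89, 7.02 and 6.89 (1.81, adjusted p = 6.39e-04), and Frzb, a secreted Wnt antagonist, at 5.92, 5.74 and 5.24 against 7.02, 7.02 and 7.63 (-1.59, adjusted p = 0.0189). Siah2, a ubiquitin ligase, rose by 2.13 (adjusted p = 0.0051) and Nkd2, a Wnt inhibitor, fell by 1.55 (adjusted p = 0.019). Of these 6, all but Hhip are in the tables. Egr2, Ankrd6 and Siah2 were called whichever array was left out. Nkd2 was not called without P1, P2, P3 or C1 (adjusted p up to 0.106), Map3k5 without P1, P2 or C1 (up to 0.0657), Errfi1 and Jun without P1, P2, P3 or C1 (up to 0.0835 and 0.102), and Frzb without P2, P3, C1 or C3 (up to 0.0833).

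Genes of hormone, lipid and energy metabolism included the change outside the tables with the smallest adjusted p. Akr1c14, a hydroxysteroid dehydrogenase, was at 2.24, 2.35 and 2.02 in P1 to P3, at 3.23, 3.38 and 3.20 in C1 to C3 and at 2.21 to 2.31 in the GFP- cells (-1.06, SE 0.09, adjusted p = 5.84e-04). Its fusion arrays overlapped the range of the GFP- arrays, and these are low values, since the median of all values was 5.11. Cyp7b1, which hydroxylates oxysterols, fell by 0.54 (adjusted p = 0.0466) on 1 of 3 probe sets, and its brightest was not called. Of 35 genes for thyroid hormone, steroid and retinoid metabolism and receptors, 2 were higher and 3 lower, all in the tables. Dio2, which activates thyroid hormone, was at 8.46, 8.88 and 8.34 against 6.56, 6.90 and 5.29 (2.31, adjusted p = 0.0192), and the glucocorticoid receptor gene Nr3c1 rose by 1.05 (adjusted p = 0.0239). Crym, which binds thyroid hormone in the cytosol, was at 6.43, 6.51 and 6.51 against 7.84, 7.80 and 8.71 (-1.63, adjusted p = 0.0182), the aldehyde dehydrogenase gene Aldh1a7 fell by 1.85 (adjusted p = 0.0062) and the orphan receptor gene Nr0b1 by 1.32 (adjusted p = 6.77e-04). Of 32 genes of prostaglandin and lipid signalling, 3 were lower and 0 higher, again all in the tables. They are Tmem30b, a subunit of lipid flippases (-2.83, adjusted p = 3.38e-04), Hpgd, which breaks down prostaglandins (-1.67, adjusted p = 0.0354), and Anxa1, annexin A1 (-1.31, adjusted p = 0.0377).

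Outside the tables, Me1, the cytosolic malic enzyme, was at 6.0, 6.18 and 6.18 against 7.05, 6.93 and 7.15 (-0.92, adjusted p = 0.0473), Stbd1, which binds glycogen, rose by 1.11 (adjusted p = 0.0221) and Maoa, a monoamine oxidase, by 0.81 (adjusted p = 0.0498). Hspa4l, a heat shock protein of the Hsp110 family, rose by 1.31 (adjusted p = 0.0189) on 1 of 5 probe sets, and its brightest was not called. The 29 genes of the unfolded protein response and heat shock, which do not include Hspa4l, had 0 calls and a median of -0.01. Ppargc1a, a coactivator of mitochondrial biogenesis that is in the tables, was called on 4 of its 5 probe sets, rising by 1.45 (adjusted p = 0.0036) on the brightest of those, and its brightest probe set of all was at 1.54 (adjusted p = 0.0522). Of 30 genes of mitochondrial biogenesis and fatty acid oxidation, 0 were called by the brightest probe set, with a median of 0.05, and of 28 genes of oxidative phosphorylation 0 were called, with a median of 0.01. In the list of carbonic anhydrases and ion transporters, Car3 rose by 1.99 (adjusted p = 0.0121) and Car11 by 1.98 (adjusted p = 0.0065), and among 27 genes of cholesterol and amino acid synthesis, Pipox, which oxidises pipecolic acid and sarcosine, rose by 1.95 (adjusted p = 6.43e-04). Egln3, an oxygen sensor, was the 1 member called among 28 genes of glycolysis and hypoxia (1.14, adjusted p = 0.0082).

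Akr1c14, Aldh1a7, Nr0b1, Tmem30b, Car11, Pipox, Egln3 and the called probe set of Ppargc1a passed whichever array was left out. Hspa4l and Car3 were not called without P1 or P2 (adjusted p up to 0.102 and 0.0718), Crym without P1, P2 or P3 (up to 0.0861), Dio2 without P1, P2, P3 or C1 (up to 0.104), Nr3c1 and Stbd1 without P1, P2, C1 or C3 (up to 0.117 and 0.118), Hpgd and Anxa1 without P1, P3, C1, C2 or C3 (up to 0.147 and 0.121), and Cyp7b1, Me1 and Maoa whichever array was left out (up to 0.201, 0.212 and 0.197). Cyp7b1 (adjusted p = 0.0514), Me1 (adjusted p = 0.0926) and Maoa (adjusted p = 0.117) were not called with the block over all arrays. On the 6 arrays the block called Me1 (adjusted p = 0.0367), but not Cyp7b1 or Maoa (adjusted p = 0.059 and 0.0709).

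Most markers of muscle differentiation had values on the higher side with PAX3-FKHR, though few were called. Of 35 such markers 2 were higher (5.71%, against 0.61% of all genes) and 0 lower. The log2 fold change was above 0 in 30 of them. Their median was 0.57, the highest of the 43 lists, against -0.03 over all genes. Their mean level was 7.22, 7.24 and 6.86 in P1 to P3, 6.75, 6.79 and 6.11 in C1 to C3 and 4.99 to 5.67 in the GFP- cells. The groups did not overlap, but P3 at 6.86 lay close to C2 at 6.79. C3, whose array weight was 0.236, was the lowest of the 6 arrays. In somites, at an earlier stage, the paper lists Myog, Myf6, Mef2c and muscle genes such as troponins as lower with PAX3-FKHR. The part of more differentiated cells in the limb differences given here was not tested. The members called were Tnnt1, a slow troponin, at 10.43, 10.73 and 10.35 against 9.43, 9.52 and 8.66 (1.30, adjusted p = 0.0327), and Chrnb1. With the 6-array replicate block, 8 of the 35 were higher, and Actn3, at 8.25, 8.52 and 8.09 against 7.18, 7.41 and 6.44 (1.27, adjusted p = 0.053), was called with either block (adjusted p = 0.0299 over all arrays and 0.0149 on the 6). Outside the tables, Mrln, which encodes a micropeptide that restrains the calcium pump of muscle, was at 6.49, 6.79 and 6.51 against 5.79, 5.83 and 5.74, and at 4.25 to 4.52 in the GFP- cells (0.81, SE 0.13, adjusted p = 0.0254). Ryr1, the calcium release channel, was called on 1 of 2 probe sets (1.11, adjusted p = 0.0257), and not on the brighter one. Of the 23 progenitor markers, Pax7 (1.45, adjusted p = 0.0281) and Cdon, a coreceptor that promotes myogenesis (1.28, adjusted p = 0.014), were higher. Pax3, whose fall is set by the genotype, was lower, whereas Lbx1 and Met were at -0.33 (adjusted p = 0.83) and -0.24 (adjusted p = 0.841). Tnnt1 and Cdon were not called without P1, P2, P3 or C1 (adjusted p up to 0.164 and 0.0838), Ryr1 without P1, P2, C1 or C3 (up to 0.125), and Mrln and Pax7 whichever array was left out (up to 0.117 and 0.13). Mrln (adjusted p = 0.0672) and Pax7 (adjusted p = 0.0531) were not called with the block over all arrays. On the 6 arrays the block called Pax7 (adjusted p = 0.0075), but not Mrln (adjusted p = 0.0562).

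Markers of macrophages, erythroid cells, neural crest and endothelium were highest on replicate 2 in both groups. The 15 macrophage markers had a mean level of 5.81, 6.5 and 4.97 in P1 to P3 and of 5.78, 6.19 and 4.99 in C1 to C3, and 0 were called. The 20 endothelial markers were at 5.88, 6.21 and 5.83 against 6.17, 6.81 and 5.94, also with 0 called, but the fusion array was the lower of each equally numbered pair, 17 of the 20 members were below 0, and the median was -0.33. The 11 erythroid markers were at 6.36, 6.95 and 6.04 against 6.22, 7.16 and 5.67, with 0 called. The 17 neural crest markers were at 6.74, 7.04 and 6.35 against 6.78, 7.12 and 6.19, with the AP-2 factor gene Tfap2c called higher (2.15, adjusted p = 0.0048). Among the 29 markers of neural tube and neurons, the homeobox gene Dbx1 was higher (2.67, adjusted p = 0.0098) and Zic1 lower (-2.07, adjusted p = 0.0047), and the mean levels were 4.85 to 5.45 and 5.23 to 5.32. Of 18 sclerotome and cartilage markers, Foxc2 was lower (-1.66, adjusted p = 0.0092), with mean levels of 5.97 to 6.07 and 5.94 to 6.10. Of the 18, 11 had a log2 fold change above 0 and 7 below, with a median of 0.07. Uncx, which is in the tables, did not pass (1.75, adjusted p = 0.242). It was called higher with array weights, by the LPE test and with the 6-array replicate block (adjusted p = 0.0289). In the GFP- cells the mean levels were 5.83 to 6.1 for neural crest and 4.14 to 4.18 for neural tube, below every GFP+ array. They were 6.2 to 6.38 for sclerotome, 6.12 to 6.33 for macrophages, 5.42 to 6.2 for endothelium and 6.01 to 9.6 for erythroid cells. The paper reads neural crest markers in its limb samples as probably a sign of some somitic material. Dbx1 was not called without P2 or P3 (adjusted p up to 0.056), and Tfap2c, Zic1 and Foxc2 passed whichever array was left out. The part of these cells in the results was not tested.

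The remaining genes outside the tables have varied roles. Higher with PAX3-FKHR were Eml1, which binds microtubules (0.99, adjusted p = 0.0103), Capn6, a calpain without protease activity (0.99, adjusted p = 0.0426), Wipf3, a partner of the actin regulator WASP (0.95, adjusted p = 0.0149), the profilin gene Pfn2 (0.67, adjusted p = 0.0257) and the kinase gene Brsk2 (0.98, adjusted p = 0.0218). Plppr1, a membrane protein of neurons, was at 6.17, 6.27 and 6.26 against 4.94, 5.18 and 5.28 (1.10, SE 0.13, adjusted p = 0.0051). The myelin gene Pmp22 rose by 0.74 (adjusted p = 0.0409), the synaptic gene Lrrtm3 by 0.70 (adjusted p = 0.0381), the chemokine gene Cxcl5 by 1.12 (adjusted p = 0.0128) and the secreted kinase gene Pkdcc by 0.90 on 1 of 2 probe sets (adjusted p = 0.05 after rounding). The brighter probe set of Pkdcc was not called. Plekha2, AI467606, Stambpl1, Ankrd33b and Gm5817 were also higher, by 0.80 to 1.15. Gpm6a, a neuronal membrane glycoprotein, was lower, at 3.89, 4.02 and 3.68 against 4.75, 5.01 and 4.87 (-1.01, adjusted p = 0.0173), again low values. AI467606 and Plppr1 were called whichever array was left out. Cxcl5 was not called without C1 (adjusted p = 0.0655), Ankrd33b without P2 (0.0509), Wipf3 without P2 or P3 (up to 0.0861), Eml1 without P1, P2 or C1 (up to 0.0562), Stambpl1 without P1, P2, P3 or C1 (up to 0.0861), Capn6 without P1, P2, P3 or C2 (up to 0.195), Gpm6a without P1, P3, C2 or C3 (up to 0.0843), Pfn2 and Brsk2 without P1, P2, C1, C2 or C3 (up to 0.152 and 0.11), and Pmp22, Lrrtm3, Pkdcc, Plekha2 and Gm5817 whichever array was left out (up to 0.184). Pfn2, Pmp22, Lrrtm3, Pkdcc and Gm5817 were not called with the block over all arrays (adjusted p from 0.0572 to 0.117). Of these, the block on the 6 arrays called only Pfn2 (adjusted p = 0.0237). Of all 56 genes outside the tables, 5 (Akr1c14, Fgf8, Hhip, AI467606 and Plppr1) were called in all 6 fits that leave out an array, and 20 were called in none of them. Leaving out P2 lost 47 of the 56, P1 44, P3 40, C1 39, C2 33 and C3 25. With the block over all arrays 30 were called, and with the block on the 6 arrays 42.

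**Figure D5:**
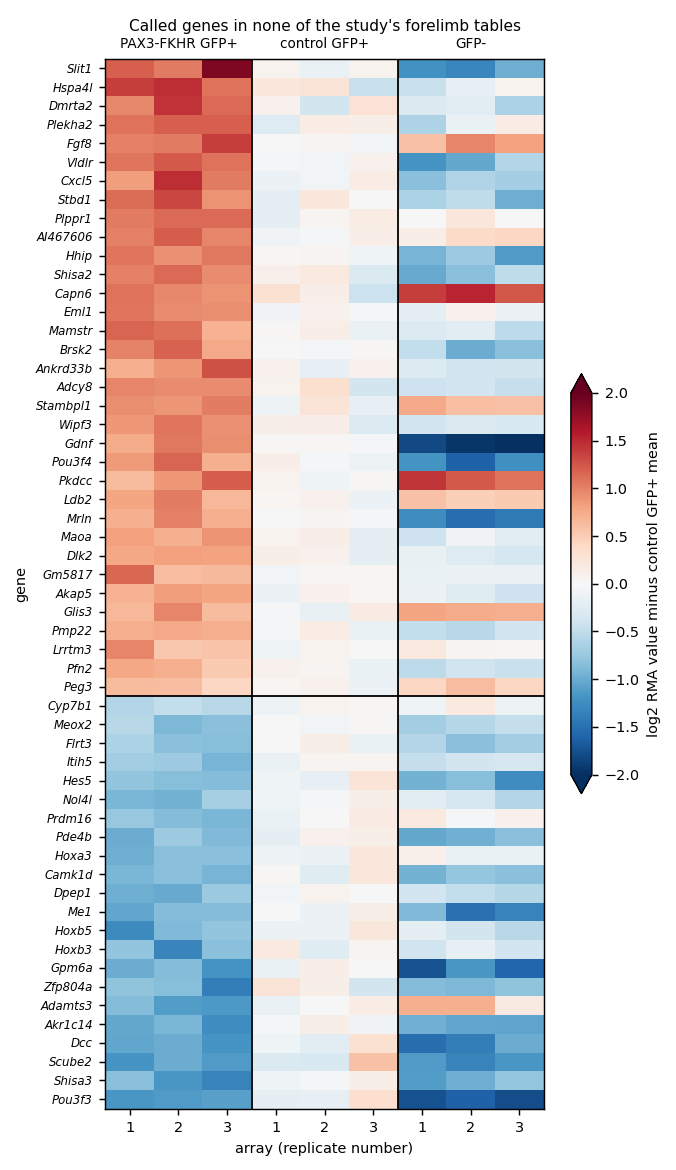
Log2 RMA value minus the control GFP+ mean of the same probe set (colour, limited to 2 in either direction) for the 56 called genes with no probe set in the forelimb tables of the study, on each of the 9 arrays. The upper 34 rows are genes called higher and the lower 22 genes called lower, and the GFP- arrays range from below the control (Gdnf) to above it (Pkdcc, Capn6).

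In several function lists 0 members were called by the brightest probe set in the fit without a block. These were cell cycle and DNA replication (36 measured, median log2 fold change -0.07), p53 targets, apoptosis and growth arrest (32, 0.05), insulin, IGF and PI3K signalling (26, 0.08), splicing and RNA-binding proteins (36, -0.07) and FoxO target genes (32, 0.04), beside the mitochondrial, oxidative phosphorylation and heat shock lists named above. Some members of these lists had large differences with wide spread. Pmaip1, a pro-apoptotic BH3 protein that is in the tables, was at 9.89, 9.84 and 9.66 in P1 to P3 and at 7.82, 7.94 and 4.59 in C1 to C3 (3.02, SE 0.69, adjusted p = 0.14), with C3 far below the other controls. Gadd45a, a stress gene that is in the tables and in both the p53 and the FoxO list, was at 6.0, 5.98 and 5.58 against 4.62, 4.93 and 4.06 (1.32, adjusted p = 0.207). Both were called with array weights, by the LPE test and with the 6-array replicate block (adjusted p = 0.0451 and 0.0076), and neither with the block over all arrays (0.113 and 0.321). With adjusted p from that fit, the block on the 6 arrays also called Cdkn1c (0.76, adjusted p = 0.0306), a cell cycle inhibitor, the RNA-binding protein genes Mbnl3 (1.24, adjusted p = 0.0307) and Celf2 (1.35, adjusted p = 0.0238), and Inpp4b (1.08, adjusted p = 0.0276) and Grb14 (-1.20, adjusted p = 0.0451) of insulin and PI3K signalling. In that fit the p53 and splicing lists each had 3 members higher, the FoxO list and the mitochondrial list 1 each, and the insulin list 1 higher and 1 lower. Of the cell cycle genes, 12 had a log2 fold change above 0 and 24 below. Of 41 genes listed as actin and microtubule regulators, Cap2, Myocd and Tppp3 were higher (1.46, 1.40 and 1.22). Fhl1 was lower (-1.04, adjusted p = 0.0159). These 4 are in the tables. Of them, Myocd encodes myocardin, which the paper lists among transcription factors. Of 26 interferon, complement and cell surface immune genes, Tnfrsf19 was lower (-1.23, adjusted p = 0.0062) and stayed so whichever array was left out. Fhl1 was not called without P1, P2, P3, C1 or C2 (adjusted p up to 0.0838), Cap2 without P1, P2, P3 or C1 (up to 0.181), Myocd without P2, P3 or C1 (up to 0.0834) and Tppp3 whichever array was left out (up to 0.116). Of 35 genes known from human PAX3-FOXO1 rhabdomyosarcoma, Pipox, Bmp5 and Fgf8 were higher and Zic1 was lower, all but Fgf8 in the tables. Fgfr4 (1.69, adjusted p = 0.372), Mycn (0.23, adjusted p = 0.794) and Met (-0.24) did not pass. The paper gives Fgfr4 as up with PAX3-FKHR among signalling genes of limbs and/or somites. It gives Met as up in somites but not in limb buds. The block on the 6 arrays moved other list counts too. It gave 10 genes higher and 1 lower for cyclic nucleotide and calcium signalling, 7 and 2 for the matrix, 8 higher for the rhabdomyosarcoma genes, 6 higher for the progenitor markers, 5 higher and 1 lower for imprinted genes and 6 lower for the Hox genes, whereas the block over all arrays left 2 Hox genes lower and 0 imprinted genes called. With 3 arrays in each group, a gene that did not pass the test may still differ. The standard error had a median of 0.14 on the log2 scale over all probe sets.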

How the data were processed

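The authors deposited log2 values per probe set, made with RMA from two-cycle amplified RNA (the version of RMA is not given in the sources used here), and the filter of the study on absent calls was not applied again. From these log2 values, the 64 control probe sets of the array were dropped, leaving 45037 to test. Of these, 34945 carry 1 gene symbol, 932 several and 9160 none in the platform annotation. A single model of group means over the 9 arrays was fitted with limma 3.58.1 in R 4.3.3 (intensity trend, Benjamini-Hochberg adjustment), after checks on simulated data. Lists use 1 probe set per gene, the brightest, whose mean across the 9 arrays is highest. A single gene named as called is shown by its brightest called probe set.

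Named are Pax3 and Foxo1, every called gene with no probe set in the study's forelimb tables, the 10 largest changes in each direction and, in each of 33 function and 10 marker lists, the members called and some with the smallest adjusted p, except in 1 list that is not reported here. Some further list members that did not pass the test are given beside them, outside this rule. They include Epcam, Krt8, Hoxb2, Hoxd3, Egr1, Fos, Lbx1, Met, Fgfr4 and Mycn, and were picked by hand. Members and lists were chosen with earlier results of these data known. Groups and replicate numbers come from the labels. Deviations of equally numbered PAX3-FKHR GFP+ and control GFP+ arrays correlated by 0.164, 0.472 and 0.287, so the numbers were taken to pair the arrays, although no source says what they share, and a block for replicate number was tried. The block over all arrays also ties the GFP- arrays to the others by number, a pairing that was not checked. The methods call the replicates biological. Depth does not apply to arrays, and their number limits the precision. The exact permutation test over 3 against 3 arrays cannot go below p = 0.1 and was not used.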

Additional observations from a re-analysis of the deposited data

How the results depend on the processing

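The counts of called probe sets (178 higher and 64 lower) were 337 and 151 with array weights and 82 and 22 on the 6 arrays compared alone, where fewer arrays estimate the spread. Leaving out 1 array gave 73 to 133 higher and 25 to 59 lower. With the replicate number as a block they were 148 and 51 over all arrays, of which 136 and 46 are calls made without the block, and 281 and 95 on the 6 arrays compared, which moved the higher count by over 1.5 times. The block over all arrays lost 39 of the 150 called genes that the naming rule covers, all of them given in the report. The block on the 6 arrays called 19 of the 79 genes under that rule that are not called without it. Median centring, a second quantile normalization, no trend, the filter on low values, leaving out _x_at and _s_at sets, adjusted p alone and a log2 threshold of 1 each kept both counts within 1.5 times of the main counts, and 0 calls reversed direction under any setting run. The local pooled error (LPE) test, the test of the study, called 176 and 59, of which 117 and 39 are shared, and it called 0 of the 56 genes outside the tables, which the study made with that test. Of 2665 values of those 150 genes under the alternatives, 1950 stayed called and 715 did not. When the probe sets of each gene were averaged, 149 genes were higher and 66 lower. For arrays, low signal limits precision, and no detection calls were used. The filter on low values dropped some called genes, among them Adcy8, Akap5, Akr1c14 and Camk1d. Gpm6a, Scube2 and Pde4b also lay below the median of all values on most of the 6 arrays.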
